A study of Mus musculus with 48 samples.

Results

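Glucocorticoid signalling in the liver and colon was described through 8 genes: the receptors *Nr3c1* and *Nr3c2*, the enzymes *Hsd11b1* and *Hsd11b2*, and the targets *Tsc22d3*, *Fkbp5*, *Sgk1* and *Tat*. Every probe whose accession maps to one of these symbols was taken, which gave 16 of the 41174 probes on the array and 8 of 18434 named genes. *Nr3c1* had 4 probes, *Nr3c2* and *Fkbp5* 3 each, *Tsc22d3* 2 and the other genes 1. The brightest probe of a gene in the mouse channel is its main probe, and values are of the main probe unless another is named.

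The study asked how selenium and folate, fed at a supplemented (H) or marginally low (L) level in a high-fat diet, alter gene expression in C57BL/6 mice. The first letter of a group is the diet of the dam in gestation and lactation and the second is the diet of the offspring from weaning to an age of 12 weeks, so all groups (HH, HL, LH and LL) share the high-fat base. The methods describe male offspring that were fasted and re-fed before sampling. *Xist*, the RNA of the inactive X chromosome, had a log2 signal over 9 in 1 liver and 6 colons, and these mice were kept. The liver was HL replicate 2. Liver LL replicate 6, at 8.56, was not counted, although the other livers under 9 ran only from 5.96 to 6.6. The colons were LL replicates 1, 3 and 5, HH replicates 1 and 5 and HL replicate 5, with none in LH, so this signal was uneven over the diets. Liver RNA came from 5 HH mice and 6 of each other group, because the labels give 2 HH arrays to one animal, and whole-colon RNA came from 6 mice per group. The labels do not tie livers to colons or mice to litters, so p-values measure the spread between these mice.

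Each of the 48 arrays held mouse RNA in Cy3 and a common reference in Cy5, with no dye swap. The sources disagree on the reference, which is a pool of gut and liver RNA in the methods and RNA of a pregnant mouse with its foetus in the deposited descriptions. Values are the log2 ratio of mouse over reference, so 0 means a signal equal to that of the reference, and a level of one gene is not comparable with that of another. The number of arrays limits the precision. In the mouse channel, 55.1 to 66% of the spots of a liver array and 66.8 to 73.7% of those of a colon array were well above background. The main probes were well above background on all 24 arrays of each tissue except *Hsd11b2*, which was so on 3 of the 24 liver arrays. The liver marker *Alb* was 5.04 ± 0.08 (SE) log2 units higher in the liver than in the colon and the colonocyte marker *Car1* lower (-5.29 ± 0.05), whereas *Aqp8*, also listed as a colonocyte marker, was 3.62 units higher in the liver.

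Glucocorticoids act through the receptor encoded by *Nr3c1*, which waits in the cytosol with heat shock proteins, moves to the nucleus once it binds hormone and then switches on or off genes that carry its response elements. The mineralocorticoid receptor, *Nr3c2*, binds corticosterone as readily as aldosterone. Tissues set their own hormone level: the enzyme encoded by *Hsd11b1* regenerates active corticosterone from its inert form, as in the liver, and that encoded by *Hsd11b2* inactivates it, as in the distal colon, so that aldosterone can reach its receptor there. *Tsc22d3* (GILZ), *Fkbp5* and *Sgk1* are induced by the hormone in many tissues, and *Tat* is a classical target in hepatocytes.

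The response element is an inverted repeat of the half-site AGAACA, read as TGTTCT on the opposite strand, with 3 bases between the copies. Windows of 250 bases before a RefSeq start (build GRCm38.p6) were held for 6 of the 8 genes, 13 windows in all. They are shown for the 3 targets *Sgk1*, *Fkbp5* and *Tat*, because they show where these letters lie. These did not vary together as a set. Between mice, *Fkbp5* rose with *Tat* only in the liver and with *Sgk1* only in the colon. The *Sgk1* window below (plus strand, chr10:21993640-21993889) is 1 of 6 of that gene and contains the complete repeat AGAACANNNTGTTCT, beginning 189 bases before the start. Only 3 of 32817 windows (0.00914%) contain it. The *Fkbp5* window (minus strand, chr17:28486150-28486399) and the *Tat* window (plus strand, chr8:109990186-109990435) contain no half-site. Capitals mark the half-site, the TATA box (TATAAA), the CCAAT box, the GC box (GGGCGG) and the E-box (CACGTG), each searched on both strands, and the sequences run 5′ to 3′ along the strand of the gene.
Sgk1: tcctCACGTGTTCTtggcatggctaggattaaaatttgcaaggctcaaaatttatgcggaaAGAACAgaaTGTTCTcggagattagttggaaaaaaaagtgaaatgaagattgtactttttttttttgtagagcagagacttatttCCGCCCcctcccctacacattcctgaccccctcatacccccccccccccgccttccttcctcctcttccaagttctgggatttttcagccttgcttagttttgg
Fkbp5: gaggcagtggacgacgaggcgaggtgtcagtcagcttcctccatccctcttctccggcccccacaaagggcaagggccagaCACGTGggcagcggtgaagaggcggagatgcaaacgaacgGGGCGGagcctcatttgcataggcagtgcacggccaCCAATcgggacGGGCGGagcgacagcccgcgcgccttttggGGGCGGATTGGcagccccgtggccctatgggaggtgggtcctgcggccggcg
Tat: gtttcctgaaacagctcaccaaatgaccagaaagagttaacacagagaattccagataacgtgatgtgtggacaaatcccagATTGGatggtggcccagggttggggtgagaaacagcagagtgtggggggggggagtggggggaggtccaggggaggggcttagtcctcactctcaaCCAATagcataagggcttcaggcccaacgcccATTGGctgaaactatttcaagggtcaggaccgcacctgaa

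In the *Sgk1* window the first half-site overlaps the E-box. A half-site was present in 4 of the 13 windows of these genes, 3 of *Sgk1* and 1 of *Tsc22d3*, against 16.1% of all windows. A GC box was present in 6 of the 13, against 32.7% of all windows, and a CCAAT box in 6, against 33.8%. A match is a description of the letters and not of binding, and the absence of a match says only that these letters are not in this window.

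The tissues differed far more than the diets. A gene was called where limma gave an FDR under 0.05 (Benjamini-Hochberg) together with a change of more than 1.5-fold. This held between liver and colon for 6 of the 8 genes, against 30.3% of all probes. *Hsd11b1*, *Tat* and *Tsc22d3* were higher in the liver and *Hsd11b2*, *Sgk1* and *Fkbp5* were lower. In whole tissue, fewer cells of a type and less RNA per cell cannot be told apart. All livers were on 6 of the slides and all colons on the other 6, so slide and tissue cannot be told apart either.

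By their main probes, the receptors were nearly level between the tissues. *Nr3c1* (chromosome 18, 39410545 to 39519421) ranged from -0.32 to 0.32 in the 23 livers (median 0.1) and from -0.1 to 0.6 in the 24 colons (median 0.34). The ranges overlapped, and the liver minus colon difference was -0.29 ± 0.06 (SE, adjusted *p* = 4.1e-05), under 1.5-fold. Its other 3 probes gave differences of -0.03, 0.07 and 0.07 with adjusted *p* of 0.276 or more. Centring each array on its median in place of loess moved the median of all probes from 0.01 to 0.22 and *Nr3c1* to -0.85, which was then called. *Nr3c2* (chromosome 8, 76898083 to 77245012) ranged from 0.03 to 0.43 in the liver (median 0.32) and from 0.01 to 0.34 in the colon (median 0.14). Its difference was 0.14 ± 0.03 (adjusted *p* = 3e-05), under 1.5-fold. In the mouse channel, its other 2 probes were well above background on 0 of 24 liver arrays but on 23 and 16 of 24 colon arrays. With slide as a block they gave liver minus colon differences of -0.39 and -0.31, opposite in sign to the main probe. In the reference channel they were well above background on only 0 and 12 of 48 arrays, so no direction was read from these ratios.

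The enzymes went opposite ways. *Hsd11b1* (chromosome 1, 193221640 to 193264045) lay between 0.86 and 2.05 in the 23 livers (median 1.55) and between -3.87 and -2.93 in the 24 colons (median -3.63). Every liver was above every colon, by 5.14 ± 0.06 log2 units on average or 35.2-fold (adjusted *p* = 5.45e-47). *Hsd11b2* (chromosome 8, 105518746 to 105523988) lay between -1.75 and -0.99 in the livers (median -1.4) and between 0.8 and 1.77 in the colons (median 1.28), with no overlap. The liver minus colon difference was -2.68 ± 0.06 (6.43-fold, adjusted *p* = 4.57e-36). Since few liver arrays were well above background, the level there is a bound, and the Cy3 signals alone put the colon at least 6.03-fold higher. The enzyme that activates the hormone and the one that inactivates it had their higher level in opposite tissues.

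Of the targets, 2 were higher in the liver and 2 in the colon. *Tat* (chromosome 8, 109986078 to 109999804), which degrades tyrosine, lay between 2.13 and 3.11 in the livers (median 2.5) and between -2.74 and -1.98 in the colons (median -2.46). The difference was 4.98 ± 0.07 (31.7-fold, adjusted *p* = 2.17e-44). *Tsc22d3* (X chromosome, 140539528 to 140600522), whose product restrains inflammatory transcription factors, lay between -0.35 and 1.24 in the livers (median 0.45) and between -1.72 and -0.7 in the colons (median -1.29). It was 1.68 ± 0.11 units higher in the liver (3.19-fold, adjusted *p* = 1.14e-18), and its second probe gave 1.55. Neither *Tat* nor *Tsc22d3* overlapped between the tissues. The share of all probes without overlap between the tissues is not given here, and 30.3% of them were called.

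*Sgk1* (chromosome 10, 21882184 to 21999903), a kinase that holds sodium channels at the surface of epithelial cells, lay between -2.94 and -0.98 in the livers (median -2.48) and between -2.34 and -0.04 in the colons (median -1.2). The ranges overlapped, and the difference was -1.27 ± 0.15 (2.41-fold, adjusted *p* = 2.6e-10). *Fkbp5* (chromosome 17, 28398753 to 28486149), a co-chaperone that lowers the affinity of the receptor for its hormone, lay between -1.76 and -0.05 in the livers (median -1.1) and between -0.63 and 0.8 in the colons (median -0.04). Its ranges overlapped and the difference was -1.02 ± 0.1 (2.03-fold, adjusted *p* = 9.45e-13). The probes of *Fkbp5* disagreed: A_52_P481493 gave -1.15 and A_52_P337899 only -0.15 (adjusted *p* = 0.0773).

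**Figure D1:**
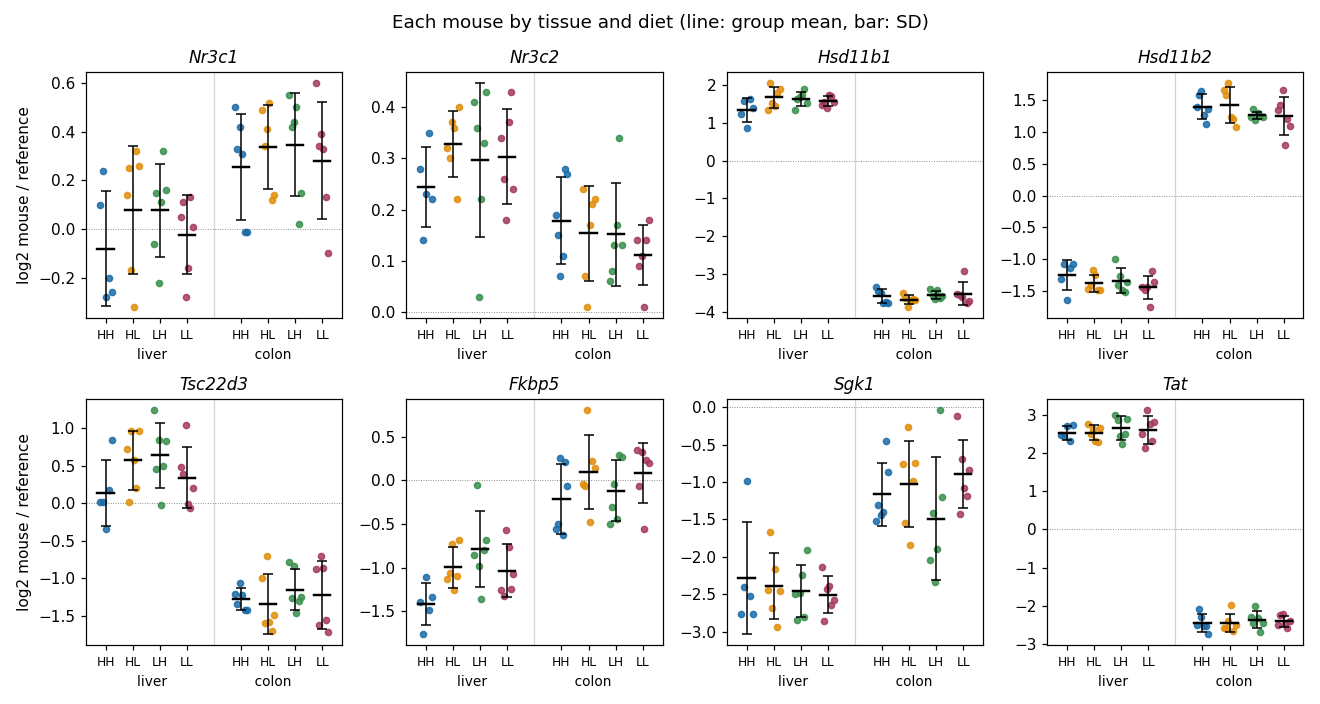
Each point is 1 mouse, plotted as the log2 ratio of mouse over reference (y axis) for the 4 diets in the liver and in the colon (x axis); lines are group means and bars are SD, and each panel has its own scale. *Hsd11b1*, *Hsd11b2*, *Tsc22d3* and *Tat* do not overlap between the tissues, whereas the diets overlap for every gene. The share of all probes without overlap between the tissues is not given.

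The other genes of the pathway were read from lists. Of all probes 30.3% were called between the tissues, 6023 higher in the liver and 6468 lower. Among 9 genes of steroid supply and turnover, 7 were higher in the liver and 1 was lower, with a median of 2.3 against 0.01 for all probes. They were led by *Serpina6*, the corticosteroid-binding globulin of plasma (5.02 ± 0.09), *Akr1d1*, a 5-beta-reductase of steroids (3.97 ± 0.09), and *Cyp3a11*, a steroid hydroxylase (5.1 ± 0.13). *H6pd*, named here for its role after its value was seen, which supplies the cofactor for the enzyme of *Hsd11b1*, was higher by 2.3 ± 0.06. The drug transporter *Abcb1a* was the one lower gene (-3.1 ± 0.1). Of 23 other glucocorticoid-induced genes, 12 were higher in the liver and 5 lower (median 0.73). Those with the lowest *p* were *Tdo2* (5.96 ± 0.09), *G6pc* (4.97 ± 0.08) and *Klf15* (4.24 ± 0.08), which act in amino acid breakdown, glucose release and their control. *Tdo2* and *G6pc* are also genes of hepatocytes in general.

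Genes of aldosterone-regulated sodium transport were mostly higher in the colon, with 5 of 9 lower in the liver, 1 higher and a median of -0.72. They were led by the sodium pump subunit *Atp1b1* (-2.39 ± 0.08), the scaffold *Cnksr3* (-1.57 ± 0.07) and the sodium channel subunit *Scnn1b* (-0.83 ± 0.05). Of 12 partners of the receptor complex, 2 were higher in the liver, the co-chaperones *Stip1* (0.78 ± 0.08) and *Ppid* (0.83 ± 0.08), and the corepressor *Nrip1* was lower (-1.16 ± 0.06), with a median of 0.22. Of 11 clock genes, 4 were higher in the liver and none lower (median 0.45), with *Per2* (1.52 ± 0.12), *Cry1* (0.85 ± 0.1) and *Tef* (1.03 ± 0.18) at the lowest *p*. The called shares of the partners and of the clock genes were near the 30.3% of all probes.

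**Figure D2:**
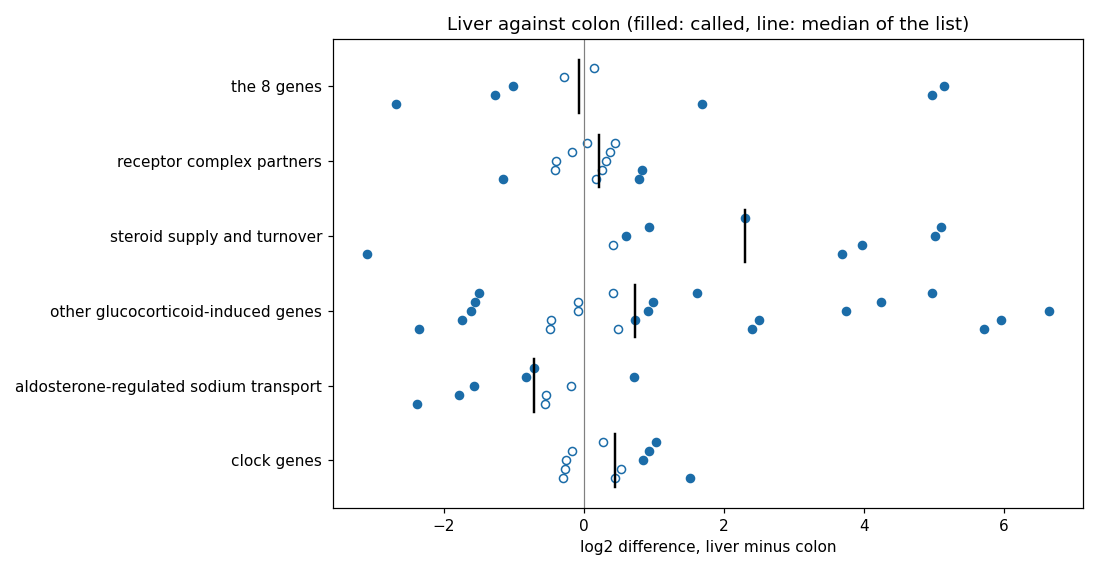
Each point is 1 gene, placed at its liver minus colon difference in log2 units (x axis), with a row for the 8 genes and for each list; filled points passed a 1.5-fold change at FDR under 0.05, and the black line is the median of the row. The row of steroid supply and turnover has its median at 2.3 and that of aldosterone-regulated sodium transport at -0.72.

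No gene was called between diets here. The paper, at the same fold and FDR thresholds, reports differentially expressed liver genes for HH *vs.* LH, HH *vs.* HL, HH *vs.* LL and LH *vs.* LL, and none in the colon. The cause of this disagreement in the liver was not tested. In all 9 liver and 9 colon contrasts of diet, limma called 0 of the 8 genes and 0% of all probes at FDR under 0.05, with unadjusted *p* under 0.05 for 3 of the 8 genes in the liver for HH *vs.* LH, 2 for HH *vs.* HL, 1 for HH *vs.* LL, 1 for dam diet, 3 for the interaction of the diets and 0 for the other 4 liver contrasts. The background for such unadjusted counts was high for HH *vs.* LH, where 12% of all probes had a *p* under 0.05, and 4.38% for HH *vs.* HL and 3.45% for HH *vs.* LL. It was 4.14% for dam diet, 11.4% for the interaction, 1.37 to 6.38% for the other 4 liver contrasts and 1.02 to 3.24% for those of the colon. In the colon no main probe of the 8 genes had an unadjusted *p* under 0.05 in any contrast unless slide was added to the model. The values below are therefore differences that did not pass the adjustment, and the 3 comparisons share the HH mice.

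*Fkbp5* had the lowest *p*. The 5 HH livers were at -1.39, -1.76, -1.11, -1.48 and -1.33. The LH livers ran from -1.36 to -0.05 with a median of -0.83, the HL livers from -1.26 to -0.68 with a median of -1.08, and the LL livers from -1.32 to -0.57 with a median of -1.16. HH held the lowest livers, and its range overlapped that of each other group. The LH minus HH difference was 0.63 ± 0.18 (95% interval 0.26 to 1, unadjusted limma *p* of 0.00189, adjusted *p* = 0.229), HL minus HH 0.42 ± 0.18 (adjusted *p* = 0.952) and LL minus HH 0.38 ± 0.18 (adjusted *p* = 1). Within slides, the LH, HL and LL livers were each above the HH liver on 6 of 6 slides, of which 2 held the same HH mouse. The brighter of the other probes, A_52_P337899, gave 0.09 for LH minus HH (unadjusted *p* of 0.529) and A_52_P481493 gave 0.02 (unadjusted *p* of 0.95), so the difference rested on 1 probe.

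*Tsc22d3* was at 0.01, 0.02, -0.35, 0.17 and 0.85 in the HH livers. In LH it ran from -0.02 to 1.24 (median 0.67), in HL from 0.01 to 0.97 (median 0.65) and in LL from -0.07 to 1.04 (median 0.29). The groups overlapped, and LH minus HH was 0.5 ± 0.23 (adjusted *p* = 0.404), with 0.47 ± 0.16 (adjusted *p* = 0.279) at its second probe. *Hsd11b1* was at 1.23, 1.58, 0.86, 1.64 and 1.39 in the HH livers. Its medians were 1.65 in LH, 1.66 in HL and 1.55 in LL, with overlapping ranges. LH minus HH was 0.29 ± 0.14 (adjusted *p* = 0.397) and HL minus HH 0.34 ± 0.14 (adjusted *p* = 0.952).

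One HH liver bore on these values. HH replicate 3, measured on 2 arrays, had the lowest *Hsd11b1* and *Tsc22d3* and the highest *Fkbp5* and *Sgk1* of its group. Without it, HL minus HH was 0.22 for *Hsd11b1* (unadjusted *p* of 0.104) and 0.5 for *Fkbp5* (0.0149). LH minus HH was then 0.17 for *Hsd11b1* (unadjusted *p* of 0.186), 0.38 for *Tsc22d3* (0.134) and 0.7 for *Fkbp5* (0.00115, adjusted *p* = 0.208). Of these 3 genes only *Fkbp5* then kept an unadjusted *p* under 0.05 for LH minus HH, where the share of all probes under that level was 13.9%.

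The interaction of dam and offspring diet in the liver was -0.67 ± 0.25 for *Fkbp5*, -0.74 ± 0.32 for *Tsc22d3* and -0.4 ± 0.19 for *Hsd11b1*, with adjusted *p* of 0.339, 0.4 and 0.429. Without HH replicate 3 it was -0.74, -0.62 and -0.28. The signs mean that LL lay below the sum of the separate LH and HL differences. With slide as a block, the other probes of *Fkbp5* gave -0.08 and 0.13. In that model *Nr3c1* gave -0.27 (unadjusted limma *p* of 0.0472) and its other probes -0.58, -0.37 and -0.65 (0.0132, 0.0138 and 0.00432). Their adjusted *p* was 0.154 or more, and 13.9% of all probes had an unadjusted *p* under 0.05 there. *Nr3c1* differed from HH by 0.16, 0.16 and 0.06 in LH, HL and LL, *Nr3c2* by 0.05, 0.08 and 0.06, and *Tat* by 0.13, 0 and 0.08. The other 3 probes of *Nr3c1* gave larger LH minus HH differences of 0.4, 0.26 and 0.45 (unadjusted *p* of 0.0181, 0.0264 and 0.018, adjusted *p* of 0.32 or more). The 95% intervals for *Nr3c2*, the tightest, lay within -0.09 to 0.23. *Sgk1* had the widest, from -0.76 to 0.44 over the same contrasts. *Hsd11b2*, near background in the liver, differed by -0.09, -0.14 and -0.2.

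In the colon, the differences from HH ran from -0.33 to 0.31. *Fkbp5* was 0.31 ± 0.2 higher in HL and 0.3 ± 0.2 higher in LL, at adjusted *p* = 1 for both. *Sgk1* differed by -0.33 ± 0.31 in LH, 0.14 ± 0.31 in HL and 0.27 ± 0.31 in LL. Offspring diet L against H gave 0.26 ± 0.14 for *Fkbp5* and 0.37 ± 0.22 for *Sgk1* (unadjusted *p* of 0.0844 and 0.109). Each slide held 1 colon of every diet, and on the 6 slides *Fkbp5* was higher in LL than in HH on all 6 (0.02 to 0.91) and higher in HL on 5, with a difference of 0 on the remaining slide. With slide as a block its offspring diet difference was 0.26 ± 0.08 (unadjusted *p* of 0.00423, adjusted *p* = 0.881), HL minus HH 0.31 ± 0.11 (0.0121, adjusted *p* = 1) and LL minus HH 0.3 ± 0.11 (0.0161, adjusted *p* = 1). In that model 5.44, 3.29 and 3.43% of all probes had an unadjusted *p* under 0.05. The probe A_52_P337899 gave 0.22 ± 0.07 for offspring diet (0.00547) and A_52_P481493 0.09 ± 0.11 (0.397). The other unadjusted *p* under 0.05 of a main probe in that model were 0.0307 for *Hsd11b2* by dam diet (-0.15 ± 0.06) and 0.0465 for *Sgk1* in LL minus LH (0.6 ± 0.28), where 5.42 and 7.18% of all probes were under that level. No colon difference of the 8 genes passed adjustment in either model. None of the 8 genes had a diet effect that differed between the tissues at an unadjusted *p* under 0.05, and limma called 0 of all probes in those contrasts, with 3.52% (dam diet) and 1.67% (offspring diet) at that unadjusted level.

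**Figure D3:**
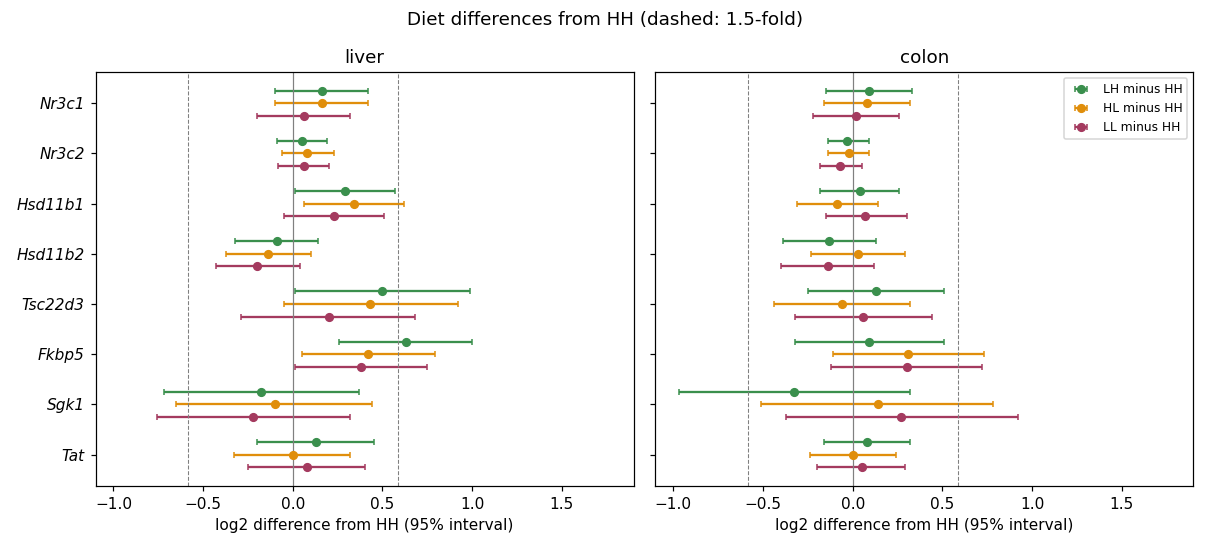
Log2 differences of LH, HL and LL from HH (x axis) for the 8 genes (y axis) in the liver and in the colon, each with its 95% interval from the limma fit without slide; dashed lines mark a 1.5-fold change. In the liver the intervals of *Fkbp5* lie above 0 in all 3 comparisons before adjustment, and in the colon every interval includes 0.

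The lists showed the same absence of calls between diets. In the liver for HH *vs.* LH, 12% of all probes had an unadjusted *p* under 0.05, and those higher in LH made up 5.85% of all probes. Of 9 genes of steroid supply and turnover 4 were under that level, all higher in LH. Of 23 other glucocorticoid-induced genes 6 were higher and 2 lower at that level, and of 11 clock genes 4 were higher and 1 lower. The medians were 0.32, 0.15 and 0.4, against -0.01 for all probes. For HH *vs.* HL, 5 of the 11 clock genes were higher at that level and none lower. Of all probes 4.38% were under that level, and those higher in HL made up 2.14% of all probes. The mean level of 5 hepatocyte markers ran from 1.29 to 1.68 in HH (median 1.38) and from 1.59 to 2.08 in LH (median 1.91). That of 5 lymphocyte markers ran from 0.05 to 0.22 in HH (median 0.11) and from -0.14 to 0.2 in LH (median 0). The part of the clock genes and of these markers in the differences of *Fkbp5*, *Tsc22d3* and *Hsd11b1* was not tested.

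Slides, each of which held 1 array of every group of one tissue, carried much of the variation between mice. Of the variance of *Nr3c1* within groups in the colon, 91.5% lay between slides, against a median of 45.4% over all probes. The 16 colons on 4 of the slides ranged from 0.31 to 0.6 and the 8 on the other 2 from -0.1 to 0.15, whatever their diet. Its other probes had 54.2, 80.5 and 82.8% between slides. In the colon *Fkbp5* had 75.2%, *Tsc22d3* 71.3% and *Sgk1* 30.6%. In the liver the share was 64.2% for *Nr3c1* and 19.9% for *Fkbp5*, against a median of 33.3%. What the slides shared (mice, extraction or hybridisation) was not given in the sources used here.

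**Figure D4:**
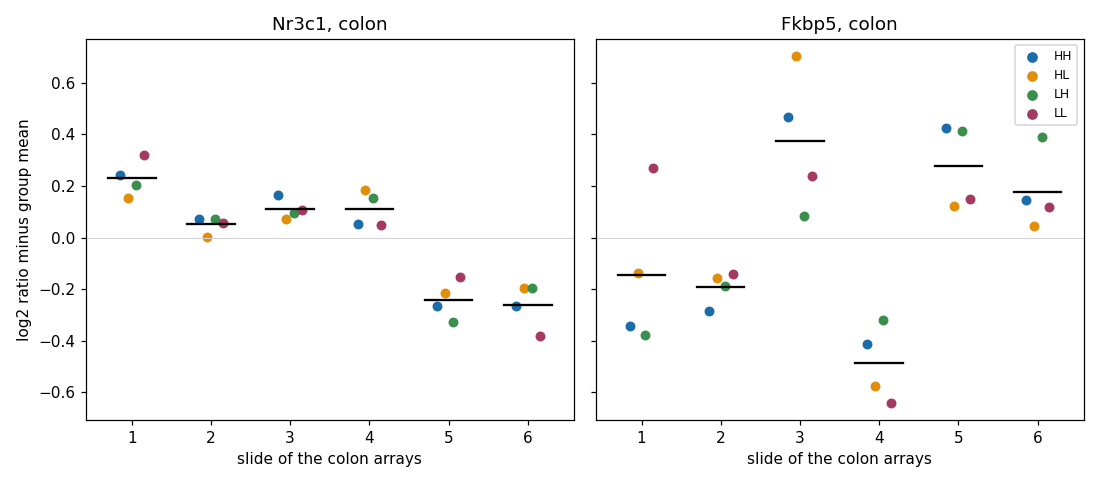
Log2 ratio minus the mean of the diet group (y axis) for *Nr3c1* and *Fkbp5* on each of the 6 colon slides (x axis), with 1 point per mouse coloured by diet and a line at the slide mean. The 4 mice of a slide lie together for *Nr3c1*, with slide means from -0.26 to 0.23, and *Fkbp5* slide means run from -0.49 to 0.37.

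Some targets varied together between mice of the same diet and tissue. Values were centred on the group mean, and 28 pairs per tissue were tested over 23 livers and 24 colons by two-sided permutation with Benjamini-Hochberg adjustment over 56 pairs. The permutations shuffled all mice of a tissue, whatever their slide. In the liver *Fkbp5* and *Tat* had Pearson's r = 0.72 (permutation *p* = 8e-05, adjusted 0.00448) and Spearman's rho = 0.7 (permutation *p* = 0.00031, adjusted 0.0174). Without the 2 mice farthest from the median of *Fkbp5* r was 0.69, with slide removed 0.73, and without HH replicate 3 0.71. The relation concerned the main probe of *Fkbp5*, which had r = 0.26 with A_52_P337899 and -0.03 with A_52_P481493 in the liver.

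In the colon *Fkbp5* and *Sgk1* had r = 0.66 (permutation *p* = 0.00057, adjusted 0.016) and rho = 0.64 (permutation *p* = 0.00116, adjusted 0.0325). Without the 2 farthest mice r was 0.64 and with slide removed 0.7. Without the 6 colons with *Xist* it was 0.61, with an adjusted permutation *p* of 0.0587. Here A_52_P337899 followed the main probe of *Fkbp5* with r = 0.87, but A_52_P481493 did not (r = -0.28). Another pair of colon relations lay just under the threshold by Pearson's r and not by rho: *Hsd11b1* with *Fkbp5* (r = -0.56 and rho = -0.49, permutation *p* of 0.00334 and 0.0154, adjusted 0.0498 and 0.108) and *Sgk1* with *Tat* (r = -0.57 and rho = -0.5, permutation *p* of 0.00356 and 0.0125, adjusted 0.0498 and 0.0998). With slide removed their r was -0.31 and -0.44, without the 2 farthest mice -0.39 and -0.48, and neither then passed. Leaving out 1 colon, LL replicate 4, took the first to -0.42. *Nr3c1* and *Tsc22d3* in the colon went from r = 0.56 to -0.21 with slide removed. In the liver the same genes went from r = -0.4 (adjusted permutation *p* of 0.176) to -0.61 (0.0343), and so passed only with slide removed. *Tsc22d3* and *Sgk1* in the colon did likewise, from r = 0.15 (adjusted permutation *p* of 0.595) to 0.57 (0.0468).

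**Figure D5:**
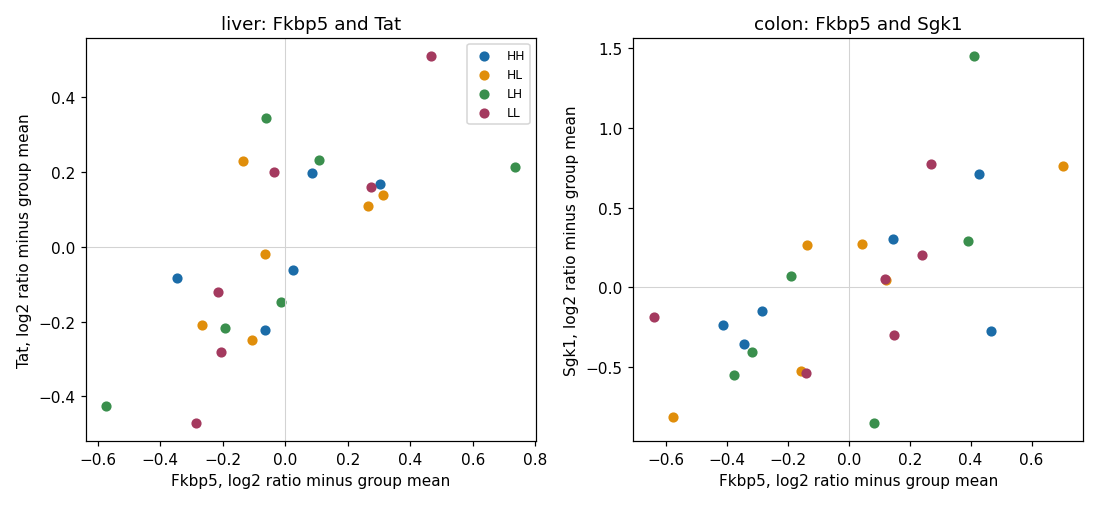
Each point is 1 mouse, coloured by diet, at its log2 ratio minus the group mean for *Fkbp5* (x axis) and for *Tat* in the liver or *Sgk1* in the colon (y axis). The points rise together, with r = 0.72 over 23 livers and r = 0.66 over 24 colons.

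In the colon *Fkbp5* also varied with the genes of sodium transport. Over 208 relations of the 8 genes with the mean of each of 13 lists, 7 passed adjustment by Pearson's r, 5 of them in the colon. *Fkbp5* followed aldosterone-regulated sodium transport (r = 0.78, rho = 0.79, permutation *p* = 1e-05 for both, the smallest that the permutations can give, adjusted 0.00208 for both). With slide removed r was 0.62, and without the 2 farthest mice 0.67. *Hsd11b1* ran opposite to that list (r = -0.74, rho = -0.71, adjusted permutation *p* of 0.00208 and 0.0135) and with colonocyte markers (r = -0.72, rho = -0.71, adjusted permutation *p* of 0.0104 and 0.0173). With slide removed these were -0.62 and -0.67, and without the 2 farthest mice -0.66 and -0.71. *Fkbp5* also followed the clock genes (r = 0.63, rho = 0.69, adjusted permutation *p* of 0.0452 and 0.0192), with 0.53 once slide was removed and 0.5 without the 2 farthest mice. The permutations shuffled colons over slides, so their *p* takes no account of slide. Of the variance of *Fkbp5* within groups in the colon, 75.2% lay between slides.

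In the liver, *Fkbp5* ran opposite to lymphocyte markers (r = -0.69, rho = -0.67, adjusted permutation *p* of 0.0104 and 0.0262), and r was -0.78 with slide removed and -0.62 without the 2 farthest mice. *Nr3c1* followed hepatocyte markers (r = 0.62, rho = 0.6, adjusted permutation *p* of 0.0452 and 0.061), with 0.59 once slide was removed but 0.43 without the 2 farthest mice. This relation concerned the main probe of *Nr3c1*, which had r = 0.44, 0.25 and 0.27 with its other probes in the liver. *Nr3c2* in the colon followed steroid supply and turnover (r = 0.61, rho = 0.62, adjusted permutation *p* of 0.0452 and 0.0496), with 0.52 once slide was removed and 0.53 without the 2 farthest mice. It too concerned the main probe only, since that of *Nr3c2* had r = -0.06 and 0.02 with its dimmer probes in the colon. The lists share arrays, and so depth and hybridisation, with the genes they are set against.

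The named genes most like each of the 8 over the same centred values are a description, since 19426 liver probes or 21971 colon probes were searched. In the liver they were *Lyz2*, the lysozyme of macrophages, for *Sgk1* (r = 0.88), *Cyp2c29* for *Hsd11b1* (0.81), *Mat1a*, which makes the methyl donor S-adenosylmethionine, for *Tat* (0.82), *Dnaic1* for *Fkbp5* (0.9) and *Slc31a1*, a copper importer, for *Nr3c1* (0.94). Without HH replicate 3 the r of *Sgk1* and *Lyz2* was 0.72, and the near-identical *Lyz1*, which the probes may not tell from *Lyz2*, had 0.84. *Cand1* (0.78) was nearest to *Tsc22d3*, *Speer2* (0.82) to *Nr3c2* and *Asb11* (0.93) to *Hsd11b2*, itself near background there. In the colon they were *Ank3*, a membrane anchor of epithelia and neurons, for *Fkbp5* (0.93), *Adra2a* for *Sgk1* (0.85), *Satb1*, a chromatin organiser of lymphocytes, for *Hsd11b1* (0.91), *Qdpr* for *Hsd11b2* (0.9), *Jdp2* for *Tsc22d3* (0.84), *Pik3r1* for *Nr3c2* (0.86), *Tmem17* for *Nr3c1* (0.96) and *Slc29a1* for *Tat* (0.85). Without colon LL replicate 4 the r of *Hsd11b1* and *Satb1* was 0.83. For *Nr3c1* in the colon 14.2% of the probes had r over 0.7, against 4.5% for *Fkbp5* and 0.109% for *Sgk1*.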

How the data were processed

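RNA of 23 livers and 24 colons was measured on 48 Agilent arrays of 45018 spots, 43379 of them not controls, read by Feature Extraction (10.10.1.1 per the file headers). The deposited scanner files hold the median intensity and local background of each spot. The authors' value table, which per the labels was made with R 3.0.2 and limma, is log2 of reference over mouse and correlated at 0.9997 or more with loess ratios computed without background correction. It served as an alternative.

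Local backgrounds brighter than their spot (32 to 639 per array) were set to the array's median background, without which the SD of the ratios was 0.53 to 0.61 on 4 arrays and with which it was 0.79 to 0.94 on all 48. Background was then corrected by normexp (offset 50) and ratios by loess within each array. Flagged spots (102 to 261 per array) were left out and spots of a probe averaged. The 2 arrays of 1 HH liver were averaged. limma 3.58.1 in R 4.3.3 fitted 4 diet groups per tissue, or 8 groups for both, with Benjamini-Hochberg adjustment over all probes. Genes were called at a fold over 1.5 and FDR under 0.05. Probes were named through their accession and RefSeq (14124 had no name). The code was tested on simulated data.

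The genes, lists and tests were chosen with earlier results of these data known. From each list at most 3 called genes with the lowest *p* are named, and for each of the 8 genes, from the 3 of highest r, at least the first, among probes well above background on at least 50% of the arrays of a tissue.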

Additional observations from a re-analysis of the deposited data

Results flagged for a closer look

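Of 64 sets of mice (8 genes in 8 groups), 2 held a mouse far from the others by Dixon's criterion, which chance alone meets in about 5% of sets. *Hsd11b1* in the colon of LL replicate 4 was -2.93, against -3.76 to -3.52 in the other 5 LL colons. This colon also had the highest mean of 5 lymphocyte markers of its group (1.61, against -0.22 to 0.08), with *Ptprc* at 3.25, *Cd79a* at 1.61 and *Cd8a* at 1.15 but *Cd3e* at -0.12. Its colonocyte markers were lowest (-0.82, against -0.59 to -0.34), as were its *Hsd11b2* (0.8) and *Fkbp5* (-0.56). The part of lymphoid tissue in the *Hsd11b1* value was not tested. The r of lymphocyte markers and *Hsd11b1* in the colon was 0.62 with this mouse and -0.29 without it.

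*Sgk1* in the liver of HH replicate 3 was -0.98, the mean of arrays at -1.11 and -0.85, against -2.77 to -2.4 in the other 4 HH livers. The arrays of this mouse differed by 0.11 in the median over all probes. *Lyz2* was 1.54 in this liver and -0.63 to -0.26 in the others, while its mean of 5 macrophage markers, 2.07, lay within the 0.78 to 2.08 of the others. The part of macrophages in the *Sgk1* value was not tested.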

How the results depend on the processing

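Results were recomputed under 15 other settings and with each of 47 mice left out. Every diet contrast kept 0 of the 8 genes called in all of them (0 to 0 with a mouse left out), and among the liver differences described the lowest adjusted *p* was 0.0515, for the *Fkbp5* interaction. Between liver and colon, 6 to 6 genes were called with a mouse left out, and direction and call changed only with the probe, the centring or the minimum fold. With the second probe of a gene, 1 was called, of the 4 genes with several probes: *Fkbp5* was no longer called (-0.15), and the sign of *Nr3c2* turned (-0.4). That *Nr3c2* probe was well above background in the mouse channel of 23 of 24 colon arrays. It was so on no liver array and in no reference channel, so its ratio gives no measured direction. Median centring also called *Nr3c1*, and no minimum fold called all 8. The share of all probes called was 58.8% with median centring, 49.2% with Agilent's processed signals, 44.6% without dim probes and 69.6% with no minimum fold. Correlated pairs of genes numbered 4 with slide removed and 3 without the *Xist* mice, of which 2 each were among the 4 reported, and 2 both with no background correction and without the 2 farthest mice. The slide, on which replicate numbers of one tissue pair the groups, was used as a replicate block: LH minus HH in the liver was then 0.59 for *Fkbp5* (limma adjusted *p* = 0.17), 0.29 for *Hsd11b1* and 0.52 for *Tsc22d3*, and no call of the 8 genes changed, while the liver interaction went from 0 to 4 called among all probes. *Fkbp5* LH minus HH ran from 0.48 to 0.74 with a liver left out and from 0.09 to 0.87 under the other settings. Few mice per group, a single probe for 4 of the 8 genes and signals near background for *Hsd11b2* and the other *Nr3c2* probes limit these results.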
